A study of Rattus norvegicus with 6 samples.

Results

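The genes followed here are 10 of the cytosolic and mitochondrial chaperone machinery, measured in rat nucleus pulposus cells in which the clock gene Bmal1 had been knocked down. They were taken by gene name from the deposited table, which lists 32623 genes, and all 10 were found there as protein-coding genes: Hspa1b and Hspa8 of the HSP70 family, Hsph1, Hspa4 and Hspa4l of the HSP110 family, the HSP70 co-chaperone Bag3, the HSP90 genes Hsp90aa1 and Hsp90ab1, and Hspd1 and Hspe1, which encode the mitochondrial chaperonin and its lid. Donor animals were male Sprague-Dawley rats, 4 weeks old, whose lumbar disc cells were grown to passages 3 to 5. One group of 3 libraries (shBmal1) was exposed for 72 hours to lentivirus encoding a Bmal1 short hairpin RNA, and the other 3 libraries (shNC) received a negative control lentivirus for the same time, so both groups carry a virus. The labels do not say whether libraries of a group came from separate rats or cultures, and each p-value therefore reflects the scatter among the libraries alone, which may be technical. How many hairpins were used, and whether rats were pooled, is not stated in the labels.

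Chaperones bind unfolded or partly folded proteins and help them to fold, to be held soluble or to be passed on for degradation. HSP70 proteins do this in cycles of ATP hydrolysis, HSP110 proteins and BAG proteins release the nucleotide and so reset the cycle, and HSP90 takes over late folding steps of selected clients such as kinases and steroid receptors. Heat shock factor 1 (HSF1) switches on many of these genes after heat or proteotoxic stress by binding heat shock elements, arrays of short inverted repeats. The nucleus pulposus is the soft centre of the disc, a tissue whose cells live under osmotic and mechanical load and with little oxygen.

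The shNC libraries held 44043803 to 49783710 counts and the shBmal1 libraries 8773762 to 11679587, a mean ratio of 4.44, so depth and group cannot be told apart. Mitochondrial ribosomal RNA took 0.033 to 0.0602% of counts in shNC and 0.722 to 1.31% in shBmal1. Arntl, the gene symbol for Bmal1, had an FPKM (fragments scaled to transcript length and library depth) of 8.38, 9.19 and 9.90 in shNC and of 0.716, 1.39 and 0.690 in shBmal1, and its mean CPM went from 29.6 to 2.82, which left 9.55% (log2 fold change −3.37 ± 0.26 SE, edgeR adjusted p = 1.17e-05). Of 24 nucleus pulposus and notochord markers, 14 could be tested, of which 3 rose, 5 fell and 6 did not pass, with a median log2 fold change of −0.05. Among those that fell were Acan, the main disc proteoglycan (−4.30), and Col2a1, its collagen (−5.21), while the rising ones were Ca3, Foxf1 and Hif1a. The defining notochord genes Tbxt, Noto and Shh were at 0 counts in every library. All 11 tested annulus fibrosus and fibroblast markers fell, from a summed 90000 to 104000 CPM (counts scaled to library size with TMM factors) to 10600 to 13700. Macrophage and leukocyte markers summed to 32.5 to 43.2 CPM in shNC and 37.5 to 50.0 in shBmal1. Of the 3 that could be tested, Fcer1g and Cd68 rose from low levels (0.1 to 10.8 and 0.407 to 2.89 CPM) and Cd14, most of the sum in controls, fell from 35.4 to 26.9 CPM, a call lost with DESeq2 and in some other alternatives. Endothelial and mural cell markers summed to 1960 to 2110 CPM in shNC and 200 to 242 in shBmal1. Of 7 that could be tested, 4 rose and 3 fell, against 36.0% higher and 35.3% lower over all tested genes. Acta2, most of that sum in controls, fell from 1650 to 92.0 CPM. Tek and Vwf rose from low levels (0.482 to 5.38 and 0.133 to 2.30 CPM). Erythroid markers summed to at most 0.993 CPM in any library. Fewer cells of a type and less RNA per cell cannot be told apart in these bulk libraries, and the part of these shifts in the chaperone results was not tested.

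Promoter sequences show where the letters of a heat shock element lie beside these genes. RefSeq windows on the assembly GRCr8, 250 bases before to 50 bases after the gene start, were matched for 8 of the 10 genes, all but Hspa1b and Hsp90aa1. The element was searched on both strands as alternating GAA and TTC units 2 bases apart: 2 units are GAANNTTC or TTCNNGAA, 3 units are GAANNTTCNNGAA or TTCNNGAANNTTC, and 4 units extend these by a further unit, so each longer match contains the shorter ones. Matches of 2 units were present in 6 of the 8 windows, against 15.9% of 33469 rat windows of the same length. Matches of 3 units were present in 4 of the 8 (Hspa8, Hsph1, Hspd1 and Hspe1), against 0.798% of windows. Matches of 4 units were present in 2, against 0.0478% (16 windows). These 2 are not separate cases, because Hspd1 and Hspe1 lie head to head with starts 290 bases apart and share the stretch on opposite strands. The shared stretch also counts for both genes among the 2-unit and 3-unit matches. The presence of these elements follows in part from the choice of the 10 as heat shock genes. The E-box CACGTG, the core sequence bound by BMAL1 with its partner CLOCK, was present in the window of Hsph1 alone, against 6.42% of windows. A match describes letters only; binding was not measured.

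The stretches that carry these matches are shown 5′ to 3′ in the direction of the gene, with heat shock element units and the E-box in capitals and positions counted from the gene start. They are chosen because they hold the 3-unit and 4-unit arrays, plus Bag3 as the case with a single 2-unit match upstream of the start. Hspa8, chr8:50080271-50080501 on the plus strand, −243 to −13, holds one 3-unit array at each end.
Hspa8: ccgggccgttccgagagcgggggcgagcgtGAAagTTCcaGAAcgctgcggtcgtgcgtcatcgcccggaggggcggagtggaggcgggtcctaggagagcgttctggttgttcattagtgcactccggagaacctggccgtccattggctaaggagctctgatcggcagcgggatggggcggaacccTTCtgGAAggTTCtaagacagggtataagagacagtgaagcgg
Hsph1, chr12:10427233-10427367 on the plus strand of GRCr8 (the deposited table, with its own coordinates, has it on the minus strand), −135 to −1, holds a 2-unit match at −105, the E-box from −70 to −65 and a 3-unit array from −36 to −24.
Hsph1: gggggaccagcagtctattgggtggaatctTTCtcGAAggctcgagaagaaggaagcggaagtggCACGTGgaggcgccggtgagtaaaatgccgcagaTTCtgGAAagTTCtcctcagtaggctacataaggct
Hspe1, chr9:64084232-64084309 on the plus strand, −95 to −18, holds the 4-unit array from −65 to −48.
Hspe1: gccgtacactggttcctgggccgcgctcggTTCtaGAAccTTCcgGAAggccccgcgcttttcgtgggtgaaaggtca
Hspd1, chr9:64084232-64084287 on the minus strand, −250 to −195, holds the same array seen from the other strand, from −242 to −225.
Hspd1: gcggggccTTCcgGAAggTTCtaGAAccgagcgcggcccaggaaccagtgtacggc
Bag3, chr1:192533298-192533365 on the plus strand, −162 to −95, holds a single 2-unit match from −132 to −125.
Bag3: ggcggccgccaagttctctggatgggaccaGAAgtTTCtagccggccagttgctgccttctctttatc
The window of Hspa4l had a single 2-unit match downstream of the start, from 39 to 46. Those of Hspa4 and Hsp90ab1 had no match to the letters searched.

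All 10 chaperone genes were higher after the knockdown, by 2.71-fold for Hspa4 to 50.5-fold for Hspa1b. In each of them every shBmal1 library lay above every shNC library. All 10 were tested and all 10 rose (edgeR quasi-likelihood test, Benjamini-Hochberg adjusted p under 0.05 over 14342 tested genes). They were chosen with earlier results of these data known, so the count only describes these genes. The response to the knockdown was broad, and this sets the background: 71.3% of tested genes passed the threshold, 36.0% of them as higher and 35.3% as lower, and 38.2% had all shBmal1 libraries above all shNC libraries. The median log2 fold change of the 10 was 2.31, against −0.01 over all tested genes, of which 25.4% were higher by at least 2-fold. Together the 10 genes took 0.224, 0.225 and 0.234% of counts with the control hairpin and 1.57, 1.66 and 1.84% with the Bmal1 hairpin.

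**Figure D1:**
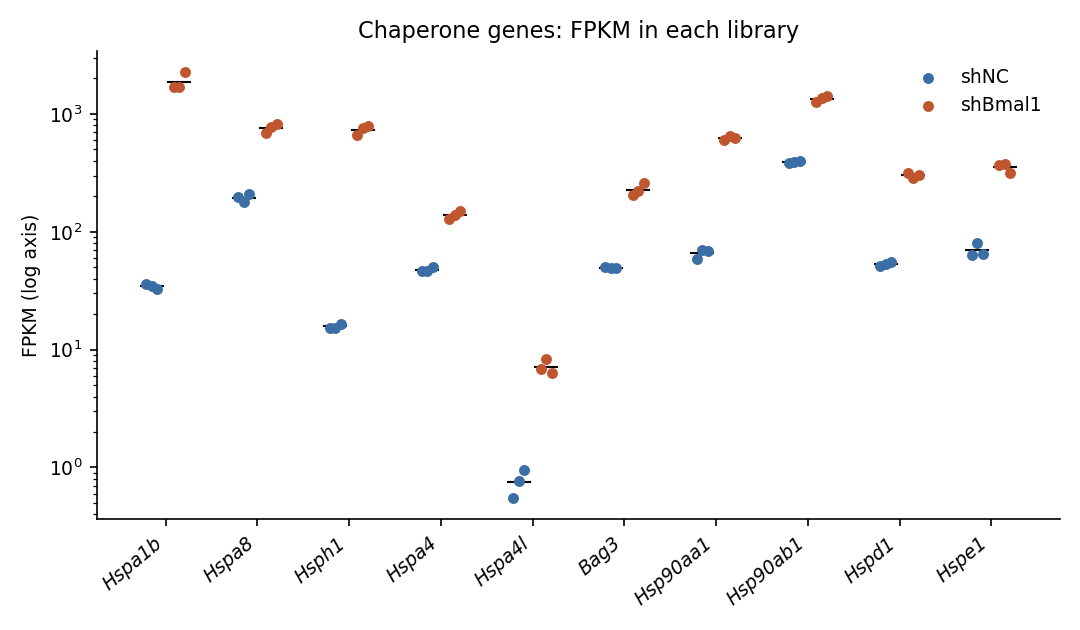
FPKM of the 10 chaperone genes (log axis) in the 3 shNC and 3 shBmal1 libraries, each point a library and each bar the group mean. The groups are separate for every gene, and Hspa1b and Hsph1 move farthest, from 32.5 to 35.9 up to 1680 to 2267 and from 15.4 to 16.6 up to 664 to 782 FPKM.

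The stress-inducible HSP70 gene Hspa1b showed the largest rise of the 10. Hspa1b (ENSRNOG00000050647, chr20:4877324-4879779, minus strand, in the coordinates of the deposited table, with no build named in the labels or header) had an FPKM of 35.9, 34.97 and 32.5 with the control hairpin and 1700, 1680 and 2267 with the Bmal1 hairpin. The lowest shBmal1 value was 43.0 times the highest shNC value on the CPM scale. Its mean level went from 92.0 ± 5.67 to 4644 ± 777 CPM (SD, n = 3 each), a log2 fold change of 5.66 ± 0.14 (SE). The edgeR adjusted p was 5.18e-08. By FPKM, Hspa1b ranked 1738, 1822 and 1967 among all genes in shNC and 48, 40 and 19 in shBmal1, which places it among the most abundant transcripts of the knockdown libraries.

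A second HSP70 row on the same chromosome went from at most 7 counts to at least 15839. LOC108348108 (chr20:2699712-2701815), which the table describes as heat shock 70 kDa protein 1A and which was chosen after its values were seen, had 7, 4 and 4 counts in shNC and 15839, 40991 and 37884 in shBmal1. It held 0.162, 0.0911 and 0.111% of the counts of the pair in shNC and 28.8, 44.5 and 36.1% in shBmal1. RefSeq now gives that gene number the symbol Hspa1b and lists Hspa1b as a synonym of Hspa1a, so which row is 1A and which is 1B is not settled here. The pair are closely related genes, and how reads shared by them were assigned is not given, so the split between the rows is uncertain. Summed, they went from 92.1 ± 5.69 to 7370 ± 1380 CPM (SD, n = 3 each), an 80.1-fold difference (log2 6.32 ± 0.16 SE, edgeR adjusted p = 5.38e-08).

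Hspa8 encodes the constitutive HSP70 of the cytosol (HSC70) and was the second most abundant of the 10 in controls. Hspa8 (ENSRNOG00000034066, chr8:44990014-44993179, plus strand) had an FPKM of 197, 178 and 210 in shNC and 689, 780 and 821 in shBmal1, with no overlap. It rose from 411 ± 32.9 to 1489 ± 122 CPM (SD, n = 3 each), 3.62-fold or 1.86 ± 0.09 (SE) on the log2 scale, with an edgeR adjusted p of 7.12e-07. The 3 rows described as similar to it, LOC688655, LOC680121 and LOC688932, chosen after their values were seen, rose as well, by 1.80, 3.08 and 2.04 on the log2 scale. RefSeq lists LOC688655 and LOC688932 as Hspa8 pseudogenes but gives the number of LOC680121 to Haus8l2, so the identity of that row is uncertain. These rows together held 35.7 to 43.1% of the summed counts in shNC and 45.7 to 48.6% in shBmal1. Their sum with Hspa8 rose 4.2-fold.

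**Figure D2:**
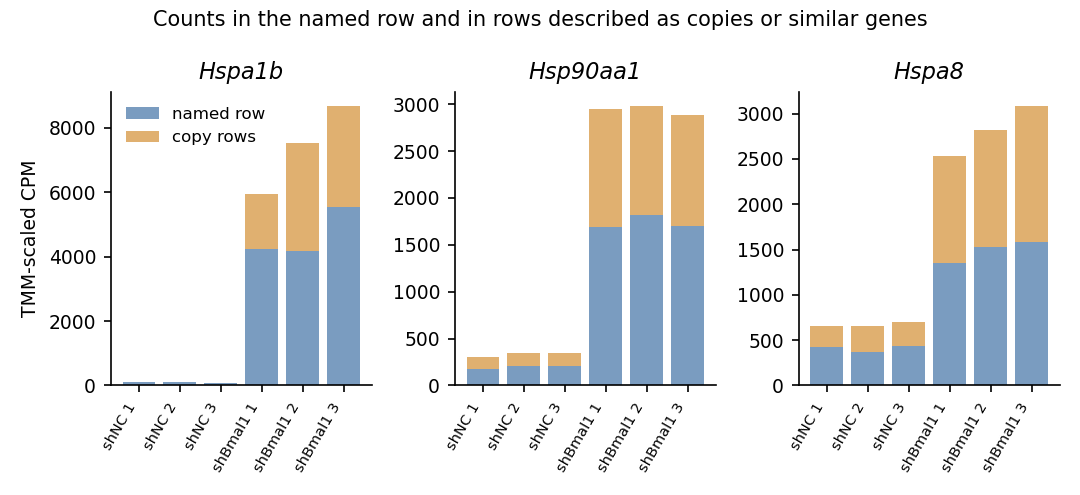
TMM-scaled CPM of the rows named Hspa1b, Hsp90aa1 and Hspa8 (blue) stacked with the rows described as copies of them or similar to them (tan) in each library; the 3 panels have their own vertical scales, each from 0. The copies take a stable part for Hsp90aa1 (38.9 to 42.7% in all 6 libraries), and for Hspa1b go from at most 0.162% to at least 28.8%.

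The 2 HSP70 genes exchanged places. The FPKM ratio of Hspa1b to Hspa8 stood at 0.182, 0.197 and 0.155 in shNC and 2.47, 2.15 and 2.76 in shBmal1. The ratio was thus below 1 in every control library and above 1 in every knockdown library, a 13.8-fold difference. These values use the named rows only. On the log2 scale the difference was 3.79, and 4.24 by counts when the rows described as copies or similar were added. An exact permutation test, two-sided, returned p = 0.1, the smallest that 3 libraries against 3 allow, and 0.125 after adjustment over the 5 ratios computed.

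Among the HSP110 genes, whose products act as nucleotide exchange factors for HSP70, the responses were of very different size. Hsph1, which encodes HSP105 (ENSRNOG00000000902, chr12:6322668-6341902, minus strand), had an FPKM of 15.4, 15.4 and 16.6 in shNC and 664, 755 and 782 in shBmal1. The lowest knockdown library was 37.6 times the highest control library on the CPM scale. Hsph1 rose from 59.1 ± 2.05 to 2542 ± 200 CPM (SD, n = 3 each), 43.0-fold or 5.43 ± 0.08 (SE) on the log2 scale (edgeR adjusted p = 2.43e-08). Its FPKM rank went from 3852, 3880 and 3685 in shNC to 139, 121 and 124 in shBmal1.

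Hspa4 and Hspa4l, the other HSP110 genes, rose less or from a much lower level. Hspa4 (ENSRNOG00000016596, chr10:38601624-38642397, minus strand) had an FPKM of 46.2, 46.1 and 50.3 in shNC and 127, 140 and 150.5 in shBmal1. It showed the smallest rise of the 10, from 233 ± 9.69 to 633 ± 47.5 CPM (SD, n = 3 each), 1.44 ± 0.07 (SE) on the log2 scale, with an edgeR adjusted p of 1.03e-06. Hspa4l (ENSRNOG00000010819, chr2:127625683-127677503, plus strand) was the least abundant, at 0.552, 0.770 and 0.944 FPKM in shNC and 6.88, 8.40 and 6.28 in shBmal1. The groups did not overlap in either gene. Hspa4l rested on 133 to 209 counts per library in shNC and 316 to 507 in shBmal1, and rose 8.80-fold, 3.14 ± 0.22 (SE) on the log2 scale, with an edgeR adjusted p of 5.70e-06. Its fold is the one most affected by the scale: with 1 added to each FPKM value the log2 difference was 2.22.

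A pair of ratios set these genes side by side within each library. Hsph1 stood at 0.0781, 0.0866 and 0.0791 of the FPKM of Hspa8 in shNC and at 0.964, 0.968 and 0.953 in shBmal1. This is an 11.8-fold difference in the ratio to the row named Hspa8, or 3.57 on the log2 scale, and 3.36 when the rows described as similar to Hspa8 were added to it. Hspa4l stood at 0.0119, 0.0167 and 0.0188 of Hspa4 in shNC and at 0.0540, 0.0600 and 0.0417 in shBmal1, a 3.3-fold difference, or 0.69 in place of 1.72 on the log2 scale when 1 was added to each FPKM. Both ratios were separate between groups, each with an exact permutation p of 0.1, the smallest possible, and 0.125 adjusted over the 5 ratios.

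Bag3 also releases nucleotide from HSP70 and links it to small heat shock proteins and to selective autophagy of damaged cytoskeletal proteins. Bag3 (ENSRNOG00000020298, chr1:199941161-199965191, plus strand) had an FPKM of 50.4, 48.9 and 49.2 in shNC and 204, 222 and 258.5 in shBmal1. The knockdown libraries lay at least 3.72 times above the highest control library on the CPM scale. Bag3 rose from 130.5 ± 3.32 to 556 ± 62.9 CPM (SD, n = 3 each), 4.26-fold or 2.09 ± 0.09 (SE) on the log2 scale (edgeR adjusted p = 4.51e-07).

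The HSP90 pair rose unequally. Hsp90aa1, the stress-inducible isoform (ENSRNOG00000059714, chr6:135107271-135112775, minus strand), had an FPKM of 58.8, 69.6 and 68.5 in shNC and 606, 654 and 620 in shBmal1. It rose from 197 ± 16.1 to 1738 ± 73.3 CPM (SD, n = 3 each), 8.84-fold or 3.14 ± 0.08 (SE) on the log2 scale, with an edgeR adjusted p of 5.46e-08. Hsp90ab1, the constitutive isoform (ENSRNOG00000019834, chr9:17817721-17823243, plus strand), was the most abundant of the 10 in every control library. In FPKM it stood at 386.5, 393.5 and 395 in shNC and at 1251, 1371 and 1422 in shBmal1, with no overlap. It rose from 1133 ± 3.63 to 3606 ± 211 CPM (SD, n = 3 each), 3.18-fold or 1.67 ± 0.06 (SE) on the log2 scale, with an edgeR adjusted p of 2.11e-07.

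The FPKM of Hsp90aa1 was 0.152, 0.177 and 0.173 of that of Hsp90ab1 in shNC and 0.484, 0.477 and 0.436 in shBmal1. The inducible isoform thus gained on the constitutive one 2.78-fold, with groups that did not overlap (exact permutation p = 0.1, the smallest possible, 0.125 adjusted over the 5 ratios). The 2 rows described as HSP90-alpha or similar, LOC103692716 (3.13) and LOC680491 (3.52), chosen after their values were seen, rose on the log2 scale beside 3.14 for Hsp90aa1. Adding them to Hsp90aa1 left the fold of Hsp90aa1 at 8.86.

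The mitochondrial chaperonin genes both rose, by similar folds. Hspd1, which encodes the barrel protein HSP60 (ENSRNOG00000014525, chr9:61680530-61690956, minus strand), had an FPKM of 51.2, 53.8 and 55.7 in shNC and 314, 288 and 301 in shBmal1. It rose from 129.5 ± 4.00 to 673.9 ± 29.6 CPM (SD, n = 3 each), 5.20-fold or 2.38 ± 0.06 (SE) on the log2 scale, with an edgeR adjusted p of 5.51e-08. Hspe1, which encodes the lid HSP10 (ENSRNOG00000051624, chr9:61692154-61694599, plus strand), had an FPKM of 63.1, 80.6 and 65.4 in shNC and 370, 375 and 317 in shBmal1. It rose from 20.2 ± 2.74 to 95.1 ± 9.47 CPM (SD, n = 3 each), 4.70-fold or 2.23 ± 0.13 (SE) on the log2 scale, with an edgeR adjusted p of 1.77e-06. The groups were separate in both genes.

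The ratio of Hspd1 to Hspe1 was the only one of the 5 whose groups overlapped. It stood at 0.812, 0.667 and 0.851 in shNC and 0.847, 0.769 and 0.949 in shBmal1, a 1.10-fold difference (exact permutation p = 0.5, also after adjustment). The 2 genes share the promoter stretch with the 4-unit array printed above, whose part in their rise was not tested. A p of this size does not show that the ratio was the same.

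**Figure D3:**
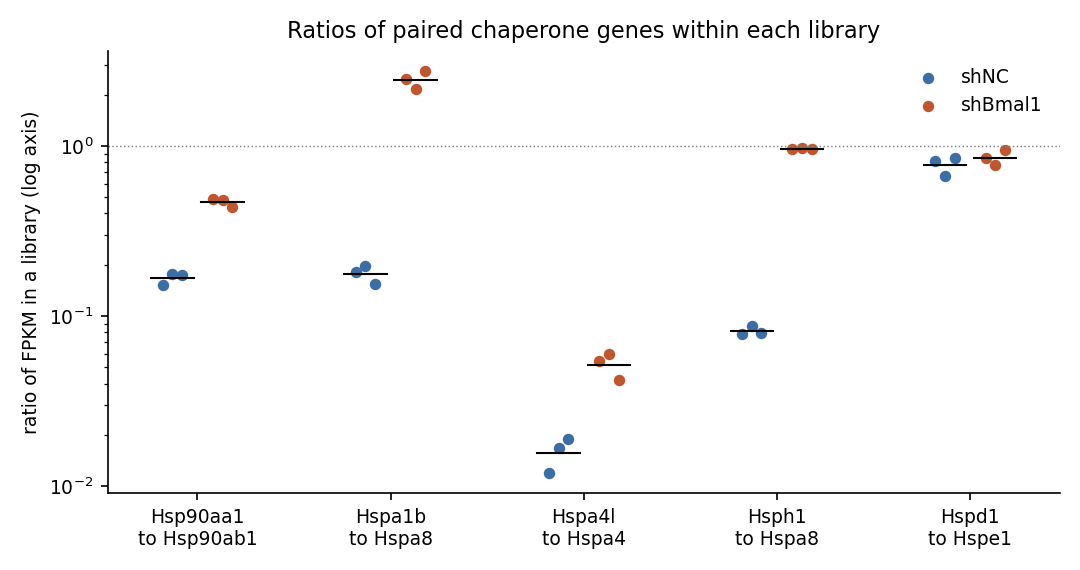
FPKM ratio of 5 gene pairs within each library (log axis); points are libraries, bars the group means of the log ratio, and the dotted line marks equal FPKM. Hspa1b to Hspa8 crosses the line of equality, Hsph1 to Hspa8, without the similar rows, lies at 0.953 to 0.968 in shBmal1, and only Hspd1 to Hspe1 overlaps between groups.

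The order of the 10 by FPKM changed with the knockdown. This order and the shares below use the named rows only, without the rows described as copies or similar. In shNC the order of mean FPKM was Hsp90ab1 (392), Hspa8 (195), Hspe1 (69.7), Hsp90aa1 (65.7), Hspd1 (53.5), Bag3 (49.5), Hspa4 (47.5), Hspa1b (34.5), Hsph1 (15.8) and Hspa4l (0.755). Neighbours in that order overlapped between libraries for Hspe1 with Hsp90aa1 and for Bag3 with Hspa4, and no other neighbours did. In shBmal1 it was Hspa1b (1880), Hsp90ab1 (1350), Hspa8 (763), Hsph1 (734), Hsp90aa1 (627), Hspe1 (354), Hspd1 (301), Bag3 (228), Hspa4 (139) and Hspa4l (7.18), with overlap for Hspa8 with Hsph1 alone. Hspa1b thus went from place 8 to place 1 and Hsph1 from place 9 to place 4, while Hspa4l stayed last. The HSP90 pair made up 49.2, 50.3 and 49.1% of the summed FPKM of the 10 in shNC and 31.3, 32.3 and 29.4% in shBmal1. Hspa1b with Hspa8 went the other way, from 25.8, 23.1 and 25.7% to 40.3, 39.2 and 44.5%.

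**Figure D4:**
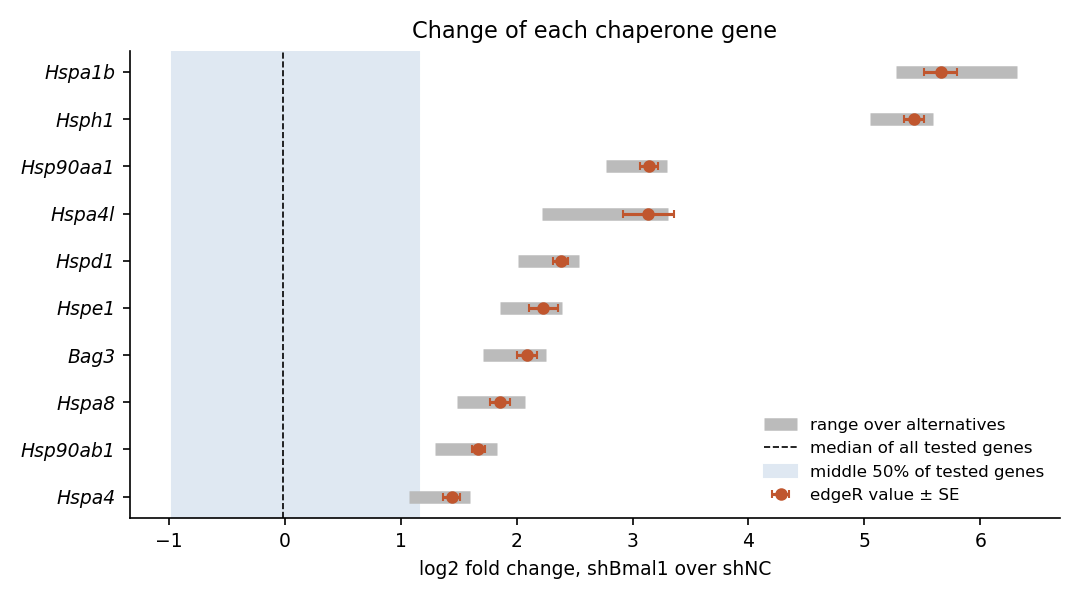
Log2 fold change of each gene, shBmal1 over shNC, as the edgeR value ± SE (orange) with the range over 16 other settings (grey), beside the median (dashed) and the middle 50% (blue band) of all tested genes. Hspa1b (5.66) and Hsph1 (5.43) stand apart from the other 8, which lie between 1.44 and 3.14.

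The sizes can be set against all tested genes. A share of 4.73% of tested genes had a log2 fold change at least as high as that of Hspa1b and 4.99% as that of Hsph1. For Hsp90aa1 and Hspa4l the shares were 9.04% and 9.06%, and for Hspa4, the smallest, 20.9%. Gene Ontology terms in the table describe the 10 but follow in part from their choice as heat shock genes. The term cellular response to heat was attached to 5 of them (Hspa1b, Hsp90aa1, Hsp90ab1, Hspd1 and Bag3) against 0.286% of 20633 annotated genes, and ATP binding to 9 of them against 6.81%.

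Of the genes whose 6-library profile lay closest to each chaperone, only Dnajb9, a J-domain gene of the endoplasmic reticulum, was in one of the chaperone lists described further on. Likeness was the Euclidean distance between log2 CPM values centred on the shNC mean, over 8498 tested genes with a mean of at least 10 CPM. This distance mostly follows the size of the change. For Hspa1b (log2 fold change 5.66) the closest genes had 5.58 to 5.73. Shared regulation was not tested. For Hspa1b the 3 closest were Plaur (distance 0.301), Arrdc4 (0.368) and Plk2 (0.462). For Hsph1 they were Cxcl1 (0.227), Atf3 (0.262) and Gtse1 (0.293), and for Hsp90aa1 Dnajb9 (0.126), Dnttip2 (0.178) and Zwint (0.190). Hspa8 lay closest to Sft2d1 (0.114), Ciao2b (0.125) and Alg10 (0.130), Hspa4 to Polr3d (0.0685), Ran (0.0750) and Nme2 (0.0774), and Hspa4l to Pde12 (0.273), NEWGENE_1306399 (0.393) and LOC100912564 (0.418). The closest to Hsp90ab1 were Son (0.101), Cox6c (0.101) and Homer3 (0.112), to Hspd1 Tnfrsf12a (0.146), Npc1 (0.147) and Ptbp2 (0.205), to Hspe1 Gmeb2 (0.204), Arl5b (0.214) and Selenok (0.215), and to Bag3 Lrrc8b (0.117), Uqcrh (0.132) and Msmo1 (0.143). None of the 10 was among the 3 closest of another.

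The wider chaperone network was counted in the same way. The 8 lists of related genes, which share some members, held 110 tested genes besides the 10, of which 44 rose, 44 fell and 22 did not pass, near the shares of 36.0% higher and 35.3% lower over all tested genes. Of the 110, 19 had a log2 fold change at least as high as Hspa4. Of 3 tested heat shock factor genes and Hsbp1, 1 rose, 1 fell and 2 did not pass. Hsf1, the gene for the main heat shock factor, fell from 39.1 ± 1.5 to 23.3 ± 2.77 CPM (SD, n = 3 each), a log2 fold change of −0.75 ± 0.11 (SE) with an edgeR adjusted p of 4.57e-04. Hsf2 rose from 14.1 ± 0.57 to 36.9 ± 5.85 CPM, by 1.38 ± 0.13 (SE), with an edgeR adjusted p of 3.84e-05. Hsbp1, whose product binds and restrains HSF1, differed by 0.14 (edgeR adjusted p = 0.105) and was called in opposite directions by limma on FPKM and on TPM values, and Hsf4 by −0.29 (0.345).

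Of 24 other known HSF1 targets 16 rose, 5 fell and 3 did not pass, against 36.0% higher and 35.3% lower over all tested genes. The median log2 fold change was 0.97, against −0.01 over all tested genes. Those that did not pass were Hspb1 (−0.07), Cacybp (0.13) and Dnaja4 (0.32). Each was called under some alternative, Hspb1 as lower and the others as higher. Cct4, a subunit of the cytosolic chaperonin, rose by 2.73, Dnaja1, a J-domain partner of HSP70, by 2.50, and Hspb8, a small heat shock protein, by 1.93. The members that fell were Serpinh1, a collagen chaperone (−1.90), Cryab, a small heat shock protein (−1.68), Fkbp4 (−0.43), Mrpl18 and Pgk1. The calls of Mrpl18 and Pgk1 were lost when library totals replaced TMM scaling. Among the counted rises, those of Nudc (0.28) and Ptges3 (0.25) were lost without the filter on low counts and on leaving out some single libraries, and their sign changed with limma on log2(TPM + 0.1), which gave 14 higher and 6 lower for this list. For Cct4, Dnaja1 and Hspb8 the edgeR adjusted p was between 5.46e-08 and 1.06e-07.

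In the other HSP70 genes 4 of 9 rose and 3 fell, against 36.0% higher and 35.3% lower over all tested genes. Hspa1l, a close relative of Hspa1b, rose from 3.75 to 67.1 CPM (log2 4.16, edgeR adjusted p = 6.10e-07), and Hspa9, the mitochondrial HSP70, by 2.51, from 330 to 1879 CPM. Hspa5, the HSP70 of the endoplasmic reticulum, rose by 1.18 while Hyou1, the HSP110 protein of the same compartment, fell by 2.18. The other fallers were Hspa2 (−1.49) and Hspa12b (−3.07), the latter with at most 5 counts in any shBmal1 library. Among 12 HSP70 co-chaperones outside the J-domain family 6 rose and 3 fell, against the same shares over all tested genes. St13 (1.97), Stip1 (1.58), Hspbp1 (1.48) and Bag1 (1.47) were all higher. The fallers were Bag2, Stub1 and Sil1.

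Of 27 HSP90 partners, 12 were higher and 9 lower, with a median of 0.13, shares near the 36.0% and 35.3% over all tested genes. Ppid, a cyclophilin co-chaperone, rose by 2.53, Flcn by 2.27, Chordc1 by 1.80 and Stip1, which hands clients from HSP70 to HSP90, by 1.58. Hsp90b1 and Trap1, the HSP90 genes of the endoplasmic reticulum and the mitochondrion, fell by 0.60 and 0.62, where Hsp90aa1 and Hsp90ab1 rose. With limma on log2(TPM + 0.1), where the median of all genes was −0.43, the HSP90 partners counted 7 higher and 13 lower, with a median of −0.25. Limma on log2(FPKM + 0.1) gave 12 higher and 9 lower, with a median of 0.24.

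Of 20 mitochondrial quality control genes, 7 were higher and 7 lower, near the shares over all tested genes, with a median of 0.04. Limma gave 4 higher and 9 lower on log2(TPM + 0.1), with a median of −0.35, and 9 higher and 6 lower on log2(FPKM + 0.1), with a median of 0.13. Hspa9 (2.51), the protease genes Spg7 (2.36) and Yme1l1 (1.0) rose with Hspd1 and Hspe1, and Atf5, a transcription factor of the mitochondrial unfolded protein response, fell by 1.36. Other protease genes went both ways: Htra2 (−1.52) and Afg3l2 (−0.71) fell, while Clpp (0.96) and Lonp1 (0.26) rose. The sign of Lonp1 changed with limma on log2(TPM + 0.1). Endoplasmic reticulum chaperones leaned down, with 12 of 20 lower and 6 higher, against 35.3% lower and 36.0% higher over all tested genes. Their median was −0.60, against −0.01 over all tested genes. Dnajb9 rose by 3.13 and Hspa5 by 1.18, while Hyou1 and the disulfide isomerase gene Pdia6 fell by 2.18 and 1.69.

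BAG3 partners in selective autophagy mostly fell while Bag3 rose. Of 16 tested, 12 fell and 3 rose, against 35.3% lower and 36.0% higher over all tested genes. The median was −1.04. When library totals replaced TMM scaling, 9 were lower and 4 higher, and the calls of Tsc1, Stx7 and Lats1 were lost. Limma on log2(TPM + 0.1) gave 12 lower and 2 higher. Hspb8 and the autophagy receptor gene Sqstm1 rose by 1.93 and 1.41. Flna, the actin cross-linker that is a client of this route, fell by 2.60, from 5303 to 874 CPM, and Synpo, an actin-associated gene, by 1.97. All 11 annulus and fibroblast markers fell in the same libraries, and their part in these falls was not tested.

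**Figure D5:**
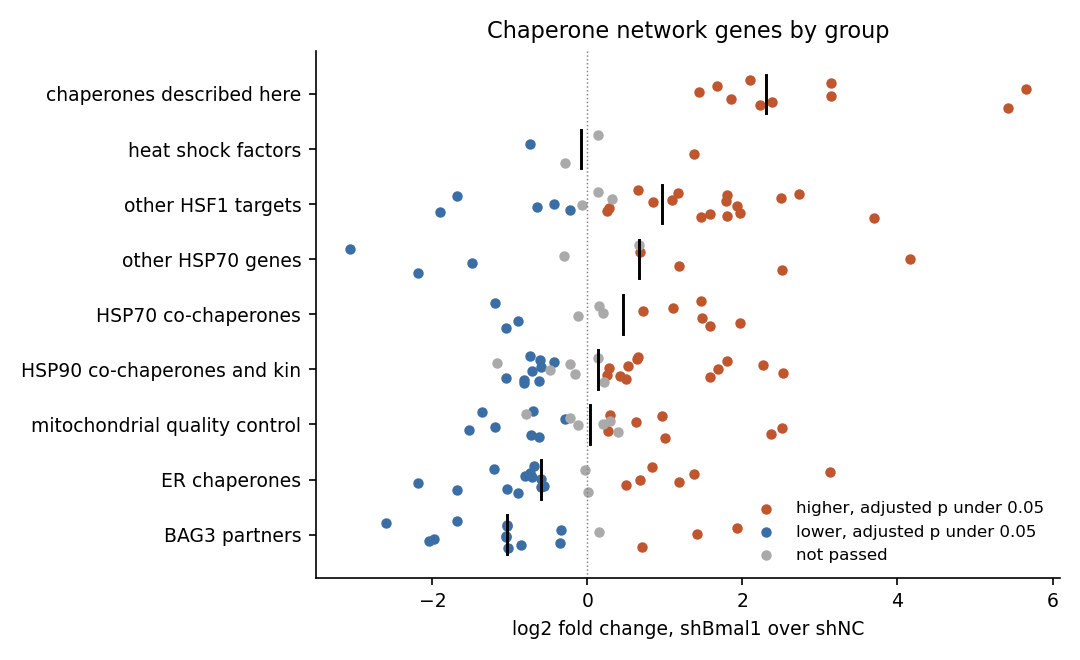
Log2 fold change, shBmal1 over shNC, of every tested gene in the 10 chaperone genes and the 8 lists, with medians as black bars; orange is higher and blue lower at an edgeR adjusted p under 0.05, grey did not pass. All 10 chaperones lie at 1.44 or above, while the medians of the lists run from −1.04 (BAG3 partners) to 0.97 (other HSF1 targets).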

How the data were processed

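Poly(A) RNA libraries were read in pairs on an Illumina NovaSeq instrument, per the labels' protocols; the same text mentions an adipose type and a poly(A)- fraction, which match no sample label. Tools in the submitters' processing notes, listed without their order, are HISAT2 2.0.4, StringTie 1.3.4d, cutadapt 1.9, DESeq2 and edgeR. The genome build, and how reads shared between genes were treated, could not be read from the labels or header. The deposited table, per the file headers, holds a read count and an FPKM value for each gene and library. Counts were tested as deposited. Genes were kept by edgeR's filterByExpr (minimum count 10, minimum total 15), scaled with TMM and tested with edgeR 4.0.16 (glmQLFit, glmQLFTest, R 4.3.3), with Benjamini-Hochberg adjustment over 14342 genes and a threshold of 0.05. CPM values use TMM-scaled library sizes. Levels were compared between genes by deposited FPKM only, and ratios within a library were compared by exact two-sided permutation on the log2 scale. A count of 3 corresponds to 0.0603 to 0.0681 CPM in shNC and 0.257 to 0.342 CPM in shBmal1. The test was also run on simulated counts with few changed genes, unlike the broad response here. That run therefore does not check the test under such a response. Alternatives were other scalings, DESeq2 1.42.0, limma 3.58.1 on log2 FPKM and TPM, no filter, a replicate block and leaving out each library; adding copies and leaving out mitochondrial genes were chosen after seeing the data. Promoter sequences are from RefSeq, GRCr8. The chaperone genes and the gene lists were chosen with earlier results of these data known. Named were the 10 genes, Arntl, up to 4 genes per list with the smallest p and the 3 nearest profiles; other genes were named after their values were seen. A gene that the rule names is not reported here. Replicate pairs of a group differed beyond counting noise, so no library was counted as a duplicate.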

Additional observations from a re-analysis of the deposited data

How the results depend on the processing

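All 10 chaperone genes remained higher at an adjusted p under 0.05 in each of 16 alternatives, 160 values in all, and all 48 alternative values of the ratios kept their direction. The lowest log2 fold change came from limma on log2(TPM + 0.1) for 9 of the genes (Hspa1b 5.27, Hspa4 1.07) and from FPKM + 1 for Hspa4l (2.22). The highest came from adding copies for Hspa1b (6.32) and Hspa8 (2.07). Of all genes, 5167 were called higher and 5066 lower by edgeR; limma called 5517 and 4789 on log2(FPKM + 0.1), and 4046 and 6539 on log2(TPM + 0.1), where the median of all genes was −0.43. Leaving out each library in turn gave 9274 to 10617 called genes, of 10233 with all. No label says that a replicate number marks a shared animal, batch or day, so the numbers were not taken as pairs. Same-numbered libraries did not deviate together (correlations −0.0705, −0.00258 and 0.0203). With a replicate block 9415 genes were called, the 10 chaperones among them. The 3 libraries per group cannot give an exact p under 0.1 for a ratio.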
